A study of Mus musculus with 12 samples.

Results

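The unfolded protein response and the integrated stress response were examined in the liver of F1 male mice through 10 genes: Ddit3, Atf4, Xbp1, Herpud1, Trib3, Asns, Chac1, Sdf2l1, Pdia4 and Creld2. The genes were taken by name as known effectors and targets of these responses and were matched by symbol to a count table of 21683 genes. All 10 were in the table, and 9 of them were among the 12459 genes that passed the filter on low counts. Asns did not pass and is described from its counts and from a fit without that filter.

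The livers came from sons of C57BL/6J wild-type sires, which were 8 weeks old when dosing by oral gavage began and were dosed for 4 weeks. Paternal DCHP males (n = 6) had sires given dicyclohexyl phthalate (DCHP), a phthalate plasticizer, and paternal control males (n = 6) had sires given the corn oil vehicle. The dams were not exposed, the sons themselves received neither agent, and both groups ate a high-fat diet for 9 weeks, starting at 3 weeks of age, before collection at 12 weeks of age. No chow-fed liver was in the series, and all animals had access to food restricted before collection. The labels do not say which sons shared a sire or a litter, so the p-values below treat the livers as independent. If sons of the same sire were among the 6 of a group, p-values could be too small for an effect of the sire's exposure.

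The endoplasmic reticulum (ER) of hepatocytes folds large amounts of plasma protein. When unfolded protein builds up there, the sensors IRE1, PERK and ATF6 are activated: IRE1 splices Xbp1 mRNA into the form that encodes an active transcription factor, ATF6 is cleaved to release one, and PERK phosphorylates eIF2alpha, which slows translation but favours that of Atf4. Other eIF2alpha kinases sense amino acid shortage, viral RNA or haem deficiency and feed into the same ATF4 arm, which is called the integrated stress response.

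Each library held 23794728 to 30445338 estimated counts, with a mean of 26537054 ± 2470921 in paternal DCHP and 26236534 ± 2540244 in paternal control (SD, n = 6 each), and a two-sided exact permutation test of the totals gave p = 0.827. Levels are given in CPM, counts scaled to library size with TMM factors, and 1 count was worth 0.0306 to 0.0452 CPM. All 9 of the hepatocyte markers in the table were detected in all 12 livers, and their summed level was 64870 to 90300 CPM in paternal DCHP and 71400 to 85070 CPM in paternal control. Other gene groups differed between the groups of livers or stood apart in single ones. The summed level of 12 immediate-early genes was 2369 CPM in DCHP 1, 674.7 CPM in DCHP 4, 532.2 CPM in DCHP 3 and 481.8 CPM in DCHP 6, all above every control liver, against 234 to 455.8 CPM in paternal control, with 11 of 12 log2 fold changes above 0 and 4 called higher by edgeR. The 12 acute-phase genes summed to 3405 to 14220 CPM in paternal DCHP, highest in DCHP 4, and 2982 to 3745 CPM in paternal control, and DCHP 1, 2, 5 and 6 were also above every control liver. All 12 had log2 fold changes above 0, and 5 were called higher by edgeR. The 12 Kupffer cell and macrophage markers summed to 245.3 to 716.5 CPM in paternal DCHP, with DCHP 3, DCHP 5 and DCHP 6 above every control liver, and 207.5 to 329 CPM in paternal control. All 12 of these had log2 fold changes above 0 too, with a median of 0.51 and none called by edgeR, 4 of them at an unadjusted p under 0.05. The 7 neutrophil markers summed to 7.12 to 14.3 CPM in paternal DCHP, with DCHP 3 to DCHP 6 above every control liver, and 3.58 to 7.54 CPM in paternal control. All 3 of those tested had log2 fold changes above 0, and 1 was called higher by edgeR. For comparison, 51.51% of all tested genes had log2 fold changes above 0. Of all tested genes 0.963% were called higher, and 18.93% had an unadjusted p under 0.05 in edgeR. In whole liver, fewer cells of a type and less RNA per cell cannot be told apart.

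None of the 9 tested stress genes passed the test between paternal DCHP and paternal control, for which a gene needed a false discovery rate (FDR) under 0.1 in the edgeR quasi-likelihood test and a fold change above 1.5. Over all tested genes 1.28% were called, 0.963% higher and 0.313% lower, so a count of 0 among 9 genes was near that background. None was called by DESeq2 or limma-voom either. At an unadjusted p under 0.05 there were 2 of the 9, Xbp1 with the higher mean in paternal DCHP and Herpud1 with the lower one, while 18.93% of all tested genes were under that value. The groups overlapped for all 10 stress genes, whereas they were fully separated for 2.16% of tested genes. Fold changes were above 0 for 6 of the 9, with a median log2 fold change of 0.10, against 51.51% and a median of 0.01 over all tested genes. This lean was not kept when single livers were left out: only 4 of 9 were above 0 without DCHP 1, DCHP 4, control 3, control 4 or control 6.

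**Figure D1:**
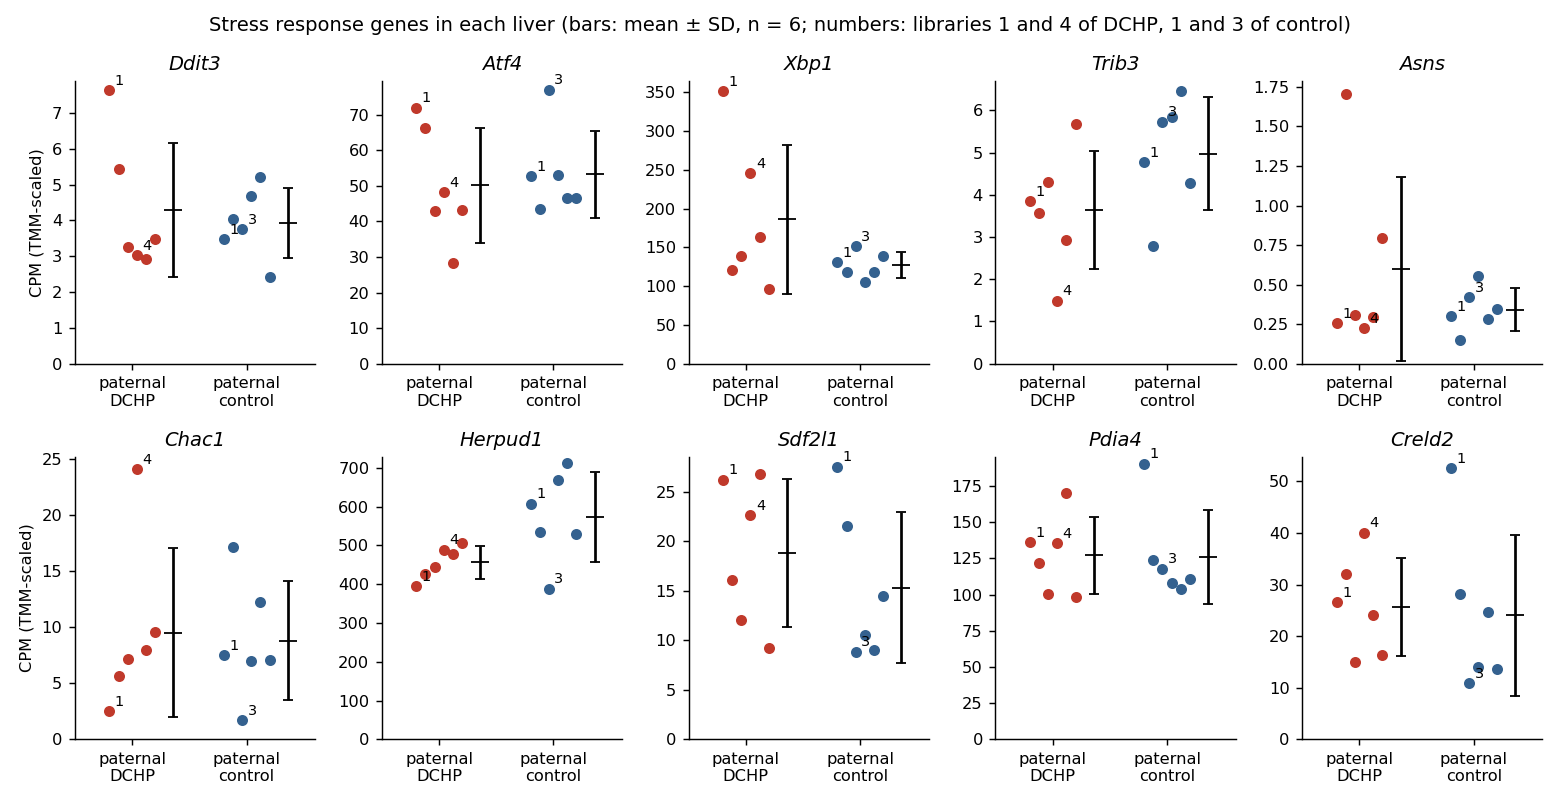
Levels of the 10 stress genes (CPM, TMM-scaled) in each liver of paternal DCHP (red, left) and paternal control (blue, right), with the mean ± SD of 6 livers beside the points and a few library numbers printed. The groups overlap in every panel, and the highest point is DCHP 1 for Xbp1, DCHP 2 for Asns, DCHP 4 for Chac1 and control 1 for Pdia4 and Creld2.

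The levels spanned a wide range when divided by exonic length. Herpud1 was the most abundant, at a mean of 195.7 CPM per kb in paternal DCHP and 245.8 CPM per kb in paternal control. Xbp1 came next at 57.3 CPM per kb in paternal DCHP and 39.2 CPM per kb in paternal control, with Pdia4 close to it at 53.0 and 52.4 CPM per kb. Atf4, Creld2 and Sdf2l1 lay between 13.8 and 22.6 CPM per kb in both groups. Chac1, Ddit3 and Trib3 were under 6 CPM per kb, and Asns was the lowest at 0.219 CPM per kb in paternal DCHP and 0.125 CPM per kb in paternal control. Xbp1 was above Pdia4 in paternal DCHP and below it in paternal control, and Atf4, Creld2 and Sdf2l1 overlapped within their SDs.

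The transcription factors of the response were considered first. Xbp1 (ENSMUSG00000020484.18, chr11:5520659-5525893, plus strand, GRCm38) encodes the factor that is made active by IRE1 splicing, and gene-level counts do not separate its spliced from its unspliced form. Its level in paternal DCHP was 96.7 CPM at the lowest, 151.4 CPM at the median and 351.7 CPM at the highest, against 105.2, 124.9 and 151.6 CPM in paternal control. DCHP 1, DCHP 4 and DCHP 5 lay above every control liver and DCHP 6 lay below every one of them. The coefficient of variation was 51.5% in paternal DCHP and 13.0% in paternal control. The mean was 186 ± 95.9 CPM in paternal DCHP and 127 ± 16.6 CPM in paternal control, a log2 fold change of 0.55 ± 0.25 (SE, 95% interval 0.0036 to 1.10) with an edgeR FDR of 0.260. The difference moved with single livers: the log2 fold change was 0.27 without DCHP 1 and 0.69 (FDR 0.127) without DCHP 6, the lowest liver. It was 0.03 (FDR 0.925) without DCHP 1 and DCHP 4 together. These are the 2 highest livers, and removing them from paternal DCHP alone lowers the value by construction. DCHP 1 and DCHP 4 are also the 2 livers with the highest summed immediate-early genes, at 2369 CPM and 674.7 CPM. The other livers did not keep that order. DCHP 3 and DCHP 6, next at 532.2 and 481.8 CPM, had 139.1 and 96.7 CPM of Xbp1. DCHP 5, the lowest of paternal DCHP at 292.2 CPM, had 163.8 CPM of Xbp1. The part of the immediate-early genes in the Xbp1 values was not tested.

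Atf4 (ENSMUSG00000042406.8, chr15:80255184-80257541, plus strand) encodes the factor at the centre of the integrated stress response. It is controlled to a large extent at translation, which RNA counts do not measure. Its level was 28.2 CPM at the lowest, 45.7 CPM at the median and 71.9 CPM at the highest in paternal DCHP, and 43.4, 49.6 and 77.0 CPM in paternal control. DCHP 3, DCHP 5 and DCHP 6 were below every control liver, and the highest liver of all was control 3. The means were 50.1 ± 16.2 CPM in paternal DCHP and 53.2 ± 12.2 CPM in paternal control. The log2 fold change was -0.09 ± 0.20 (SE, 95% interval -0.52 to 0.34, edgeR FDR 0.842), and its sign turned without control 3 (0.05) or without DCHP 5 (0.03).

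Ddit3 (ENSMUSG00000025408.15, chr10:127290774-127296288, plus strand) encodes CHOP, a pro-apoptotic factor induced downstream of ATF4. It shares 68 exonic bases with Mars, a tRNA synthetase gene on the opposite strand, and the strand setting of the counting is not given. The level was 2.92, 3.37 and 7.63 CPM at the lowest, median and highest in paternal DCHP, against 2.41, 3.89 and 5.22 CPM in paternal control. DCHP 1 and DCHP 2 (5.43 CPM) were above every control liver, whereas the other 4 livers of paternal DCHP were within the control range. The means of 4.29 ± 1.88 CPM in paternal DCHP and 3.93 ± 0.98 CPM in paternal control gave a log2 fold change of 0.13 ± 0.26 (SE, 95% interval -0.42 to 0.68, edgeR FDR 0.815). Without DCHP 1 it was -0.12.

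Trib3, Chac1 and Asns are targets of the ATF4 arm that act in feedback and amino acid metabolism. Trib3 (ENSMUSG00000032715.9, chr2:152337422-152344032, minus strand) encodes a pseudokinase that binds AKT and also restrains ATF4 and CHOP. It ranged over 1.49, 3.71 and 5.67 CPM (lowest, median, highest) in paternal DCHP and 2.79, 5.25 and 6.45 CPM in paternal control, with DCHP 4 below every control liver and the other 5 inside the control range. The means were 3.64 ± 1.40 CPM in paternal DCHP and 4.98 ± 1.33 CPM in paternal control, and the log2 fold change was -0.45 ± 0.27 (SE, 95% interval -1.02 to 0.12, edgeR FDR 0.377). It kept its sign under every alternative run, between -0.61 and -0.27, without passing the test in any.

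Chac1 (ENSMUSG00000027313.3, chr2:119351229-119354381, plus strand) encodes an enzyme that degrades glutathione. It was the most variable of the tested stress genes, with a 14.0-fold range over the 12 livers. Levels were 2.49, 7.60 and 24.1 CPM (lowest, median, highest) in paternal DCHP and 1.72, 7.29 and 17.2 CPM in paternal control. The highest liver was DCHP 4, the only one above the control range, and the lowest was control 3. The log2 fold change was 0.10 ± 0.50 (SE, 95% interval -0.97 to 1.17, edgeR FDR 0.931), with a value of -0.41 without DCHP 4, so the depth and spread here left changes of about 2-fold in either direction within the interval.

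Asns (ENSMUSG00000029752.12, chr6:7675169-7693254, minus strand) encodes asparagine synthetase, the enzyme induced by ATF4 when amino acids are short. It was close to the limit of detection in these livers. The paternal DCHP libraries held 7, 48, 10, 5, 7 and 19 counts, and the paternal control libraries held 7, 4, 11, 14, 8 and 10.293 counts. DCHP 2 had 1.70 CPM and DCHP 6 had 0.798 CPM, against at most 0.557 CPM in paternal control, and the other 4 livers of paternal DCHP were within the control range. In the edgeR fit without the low-count filter the log2 fold change was 0.82 ± 0.54 (SE, 95% interval -0.33 to 1.96, FDR 0.469). Without DCHP 2 the same fit gave 0.15 (FDR 0.903), and 48 of the 96 counts of paternal DCHP came from that liver.

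The promoters of these ATF4 targets were read for the C/EBP-ATF composite element, a motif bound by ATF4 together with a C/EBP partner. The letters TGATGNAA were searched on both strands in the RefSeq windows of 300 bases around each gene start (GRCm38.p6), and 3.97% of 32851 windows held them. They were present for 4 of the 10 stress genes, Trib3, Asns, Chac1 and Herpud1, and for Atf3, whose values follow. Each is shown with 10 bases of flank and the fixed letters of the motif in capitals, to let the shared core be compared.
Trib3 (chr2:152344029-152344056, plus strand): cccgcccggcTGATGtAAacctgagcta
Asns (chr6:7693215-7693242, minus strand): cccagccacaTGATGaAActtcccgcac
Chac1 (chr2:119351039-119351066, minus strand): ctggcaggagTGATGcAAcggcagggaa
Herpud1 (chr8:94386307-94386334, minus strand): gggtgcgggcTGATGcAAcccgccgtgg
Atf3 (chr1:191183426-191183453, plus strand): gcggacttggTGATGcAAgtgcgagaag
Chac1, Herpud1 and Atf3 shared the form TGATGCAA. The match lay 23 bases before the start in Asns, 110 in Atf3, 112 in Herpud1 and 193 in Chac1, measured from its upstream end, and 14 bases after the start in Trib3. These distances are from RefSeq starts, which differ from the ends of the GENCODE gene spans given above, so that the Asns match lies inside its GENCODE span and the Trib3 match before it. A match is a description of the sequence and not evidence of binding in these livers. Of the genes that carried the letters, the means of Trib3 and Herpud1 were lower and those of Asns, Chac1 and Atf3 higher in paternal DCHP, and only Atf3 passed the test. The log2 fold change was 0.15 for Asns without DCHP 2 and -0.41 for Chac1 without DCHP 4, so no direction was read from those means.

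The other 4 stress genes encode proteins of the ER itself. Herpud1 (ENSMUSG00000031770.16, chr8:94386438-94395377, plus strand) encodes a membrane protein that organises ER-associated degradation. Its levels were 394.6, 461.2 and 507.1 CPM (lowest, median, highest) in paternal DCHP, and 388.5, 570.5 and 712.1 CPM in paternal control. All 6 livers of paternal DCHP lay within the control range, but 5 of the 6 control livers were above every liver of paternal DCHP, and the exception was control 3, the lowest of all. The coefficient of variation was 9.29% in paternal DCHP and 20.2% in paternal control. The means were 457 ± 42.4 CPM in paternal DCHP and 573 ± 116 CPM in paternal control, with a log2 fold change of -0.33 ± 0.13 (SE, 95% interval -0.60 to -0.06) and an edgeR FDR of 0.181. It was the smallest FDR of the 9. Over the alternatives the log2 fold change stayed between -0.42 and -0.26 and the FDR between 0.113, reached without control 3, and 0.331. The size was under 1.5-fold in each.

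Sdf2l1 (ENSMUSG00000022769.9, chr16:17130138-17132383, minus strand) encodes a partner of the BiP cochaperone ERdj3. It ranged over 9.20, 19.3 and 26.8 CPM (lowest, median, highest) in paternal DCHP and 8.87, 12.5 and 27.6 CPM in paternal control. Livers above 20 CPM were DCHP 1, DCHP 4 and DCHP 5 in the one group and control 1 and control 2 in the other, and the groups covered nearly the same range. The log2 fold change was 0.30 ± 0.32 (SE, 95% interval -0.39 to 0.98, edgeR FDR 0.638), and over the alternatives it ran between 0.063 (FDR 0.942) without DCHP 1 and DCHP 4 together and 0.54 (FDR 0.347) without control 1. It was 0.17 without DCHP 5 and 0.18 without DCHP 1, control 3 or control 5.

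Pdia4 (ENSMUSG00000025823.9, chr6:47796141-47813430, minus strand) encodes a protein disulfide isomerase of the ER lumen. The lowest, median and highest livers had 98.3, 128.7 and 170 CPM in paternal DCHP and 103.7, 114.2 and 190.4 CPM in paternal control. Control 1 was the highest, and DCHP 3 and DCHP 6 were below every control liver. The means were 127 ± 26.7 CPM in paternal DCHP and 126 ± 32.5 CPM in paternal control. With a log2 fold change of 0.02 ± 0.16 (SE, 95% interval -0.33 to 0.36, edgeR FDR 0.969), it was the gene with the mean difference closest to 0.

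Creld2 (ENSMUSG00000023272.4, chr15:88819646-88826683, plus strand) encodes a secreted ER protein used as a marker of ER stress. Its levels were 14.9, 25.3 and 40.0 CPM (lowest, median, highest) in paternal DCHP and 10.9, 19.4 and 52.6 CPM in paternal control. Control 1 again was the highest liver, and all 6 livers of paternal DCHP were within the control range. The log2 fold change was 0.10 ± 0.35 (SE, 95% interval -0.66 to 0.85, edgeR FDR 0.907), with 0.49 without control 1 and -0.07 without DCHP 4.

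**Figure D2:**
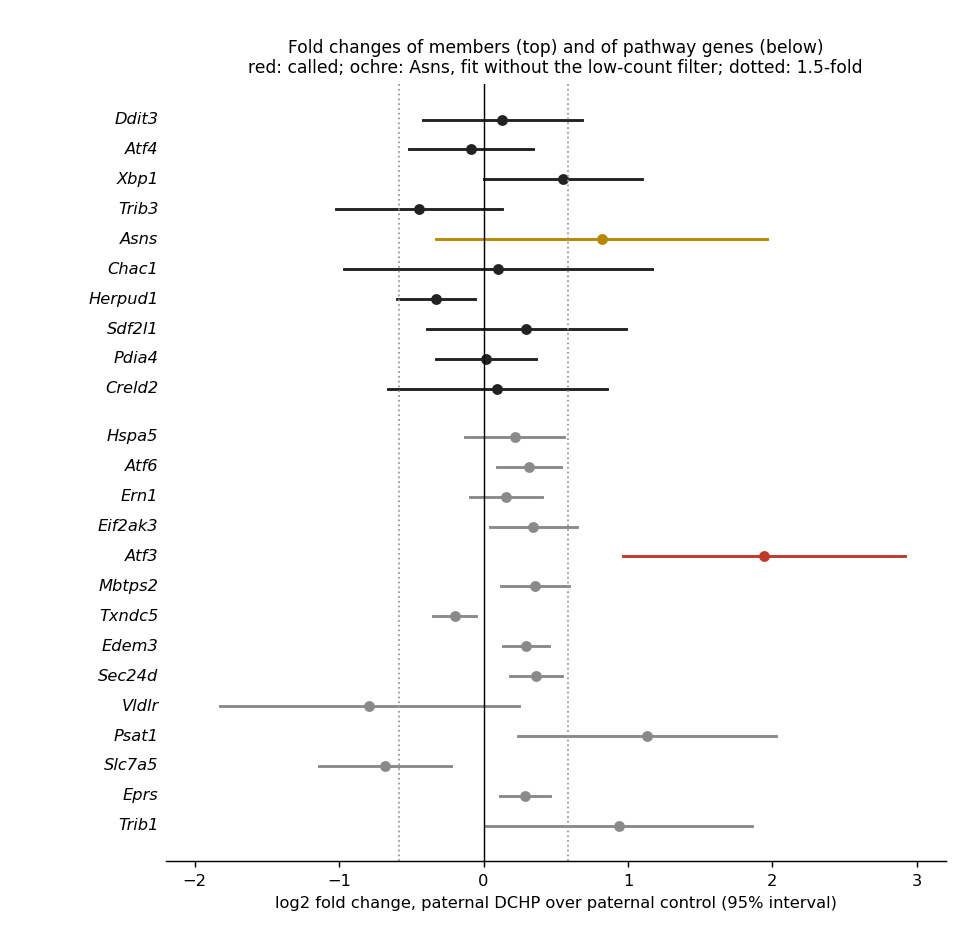
Log2 fold changes of paternal DCHP over paternal control with 95% intervals from edgeR, for the 10 stress genes (top) and the named genes of the pathway lists (below). Dotted lines mark 1.5-fold. Among the stress genes the intervals of Xbp1 and Herpud1 exclude 0 without an FDR under 0.1, Asns comes from the fit without the low-count filter, and Atf3 is the gene that was called.

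Sdf2l1 and Pdia4 varied together from liver to liver, in both groups. Correlations were computed on log2 CPM centred on each group's mean over the 12 livers, for all 45 pairs of the 10 stress genes. The median r was -0.03, 20 of the 45 were above 0, 7 had an unadjusted permutation p under 0.05, and 1 had an adjusted p under 0.05. That pair was Sdf2l1 and Pdia4, with r = 0.863 (permutation p = 0.00025, adjusted p = 0.0113 over 45 pairs) and rho = 0.867 (permutation p = 0.00039, adjusted p = 0.0176). It was 0.742 without control 1 and DCHP 6, the livers farthest from the median of Sdf2l1, and 0.931 within paternal DCHP and 0.805 within paternal control.

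Creld2 leaned the same way with Sdf2l1 (r = 0.726, rho = 0.671, permutation p = 0.0135 and 0.0333, adjusted p = 0.191 and 0.258) and with Pdia4 (r = 0.693, rho = 0.615, permutation p = 0.0186 and 0.0402), but neither passed the adjustment, and r with Sdf2l1 was 0.513 without control 1 and DCHP 6. Herpud1, also an ER gene, went instead with Chac1 at r = 0.703 (rho = 0.629, permutation p = 0.0159 and 0.0353, adjusted p = 0.191 and 0.258), and that value was 0.410 without control 3 and control 5. Trib3 and Sdf2l1 had opposite deviations, with r = -0.65 and rho = -0.80 (permutation p = 0.0224 and 0.00437, adjusted p = 0.191 and 0.0983). Atf4 and Herpud1 had r = -0.56 (rho = -0.40, permutation p = 0.0255 and 0.207, adjusted p = 0.191 and 0.466). Atf4 and its target gene Chac1 also had r = -0.64 (rho = -0.66, permutation p = 0.0302 and 0.0297, adjusted p = 0.194 and 0.258). Ddit3 and Atf4 had r = 0.605 (rho = 0.462, permutation p = 0.068 and 0.153, adjusted p = 0.332 and 0.458). That r was 0.860 within paternal DCHP, 0.0055 within paternal control and 0.413 without control 6 and DCHP 1. Xbp1 and Herpud1 had r = -0.39 (rho = -0.37, permutation p = 0.0506 and 0.194, adjusted p = 0.285 and 0.466). Xbp1 and Sdf2l1 had r = 0.520 (rho = 0.392, permutation p = 0.0847 and 0.201, adjusted p = 0.332 and 0.466). The r of Xbp1 and Sdf2l1 was 0.798 within paternal DCHP, -0.021 within paternal control and 0.253 without DCHP 1 and DCHP 6.

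**Figure D3:**
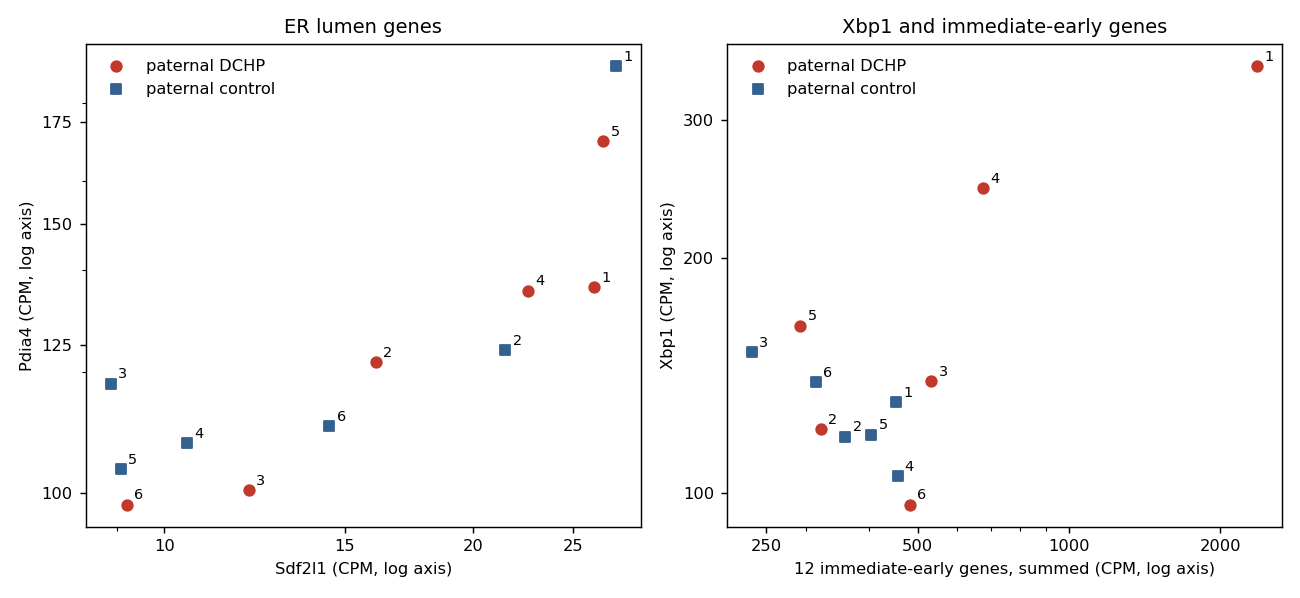
Left, Pdia4 against Sdf2l1 (CPM, log axes) in 12 livers, with paternal DCHP as red circles, paternal control as blue squares and library numbers beside the points. Control 1, DCHP 5, DCHP 4 and DCHP 1 lie at the upper right. Right, Xbp1 against the summed level of 12 immediate-early genes, where DCHP 1 and DCHP 4 hold the highest values of both.

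The genes most alike in their liver-to-liver pattern were ER folding genes for Sdf2l1 and Pdia4. Likeness was the Pearson r of centred log2 CPM over 12 livers, searched among the 11443 tested genes that averaged 1 CPM or more and given as a description. The 5 genes most like Sdf2l1 were Pdia6 (0.969), Dnajc3 (0.944), Calr (0.937), Ero1lb (0.928) and Ormdl2 (0.923), of which the first 4 are ER folding factors: an oxidoreductase, a BiP cochaperone, the lectin chaperone calreticulin and an oxidase. Those most like Pdia4 were Pdia3 (0.968), Dnajb11 (0.939), Hsp90b1 (0.935), Ero1lb (0.930) and Rep15 (0.930). For Creld2 they were Dctn5 (0.924), Olfr365 (0.888), Tram1 (0.884), Apobec1 (0.861) and Camk2n2 (0.854), of which Tram1 encodes a translocon-associated protein.

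A list of 22 ER chaperones and folding enzymes made up 0.192% of the genes searched. Among the 50 genes most like each stress gene it supplied 7 for Sdf2l1, 8 for Pdia4, 4 for Creld2 and 0 for each of the other 7. The other 7 had top genes from outside the pathway lists, with 1 exception. Herpud1 was most like Dclre1b (0.874), Klf15 (0.864) and Gdf15 (0.860), and Gdf15 encodes a secreted hormone induced by the integrated stress response. The closest gene was Dusp4 (0.912) for Xbp1, Ube2j2 (0.931) for Atf4, Cyth1 (0.816) for Ddit3, Fam160b2 (0.960) for Trib3, Homer3 (0.917) for Asns and Bok (0.878) for Chac1. With 12 livers and 11443 genes searched, a best r of 0.816 or more was found for all 10 stress genes.

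The pattern shared with Sdf2l1 and Pdia4 was visible in single livers for some ER chaperones. Hspa5, which encodes BiP, the main chaperone of the ER lumen, had 629.8, 495.2, 340, 549.7, 539.6 and 332.5 CPM in DCHP 1 to 6, and 524.1, 348.7, 364.1, 375.1, 477.9 and 397.3 CPM in control 1 to 6. Hsp90b1, which encodes the chaperone GRP94, had 683.9, 644.1, 465.2, 725, 775.8 and 473.2 CPM in DCHP 1 to 6 and 850.4, 622, 493.2, 466.1, 532.9 and 555 CPM in control 1 to 6. In both genes DCHP 3 and DCHP 6 were the lowest livers of paternal DCHP and control 1 was the highest of paternal control, as for Sdf2l1 and Pdia4. Derl3, which encodes an ER-associated degradation factor that is also abundant in plasma cells, had 4.87, 2.48, 1.07, 5.80, 2.67 and 0.966 CPM in DCHP 1 to 6, against 18.1, 14.0, 1.68, 1.40, 0.806 and 2.80 CPM in control 1 to 6. Its highest livers were control 1 and control 2. Not all ER folding genes had this pattern: P4hb, a disulfide isomerase, stayed between 1205 and 1427 CPM in paternal DCHP and between 1200 and 1468 CPM in paternal control, and Dnajb9, a BiP cochaperone, had 34.4 CPM in control 1, near its lowest.

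Plasma cells also use these genes heavily, so their markers were read beside them. The 9 B and plasma cell markers summed to 3.01 to 7.37 CPM in paternal DCHP and 2.41 to 21.3 CPM in paternal control, with control 1 at 21.3 CPM and control 2 at 15.1 CPM. Derl3, itself on that list, made up 18.1 CPM and 14.0 CPM of those sums. The defining marker Tnfrsf17 was at 0 counts in all 12 livers, and 5 of the 9 markers were detected in every liver. Their part in the levels of the ER genes was not tested. The 9 pancreatic acinar markers summed to 5.88 to 13.8 CPM in paternal DCHP and 7.02 to 12.6 CPM in paternal control, and Cpa1, Cpb1, Pnlip and Amy2a5 were at 0 in all 12. Cela1 alone, at a mean of 8.31 CPM in paternal DCHP and 9.07 CPM in paternal control, made up most of those sums.

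**Figure D4:**
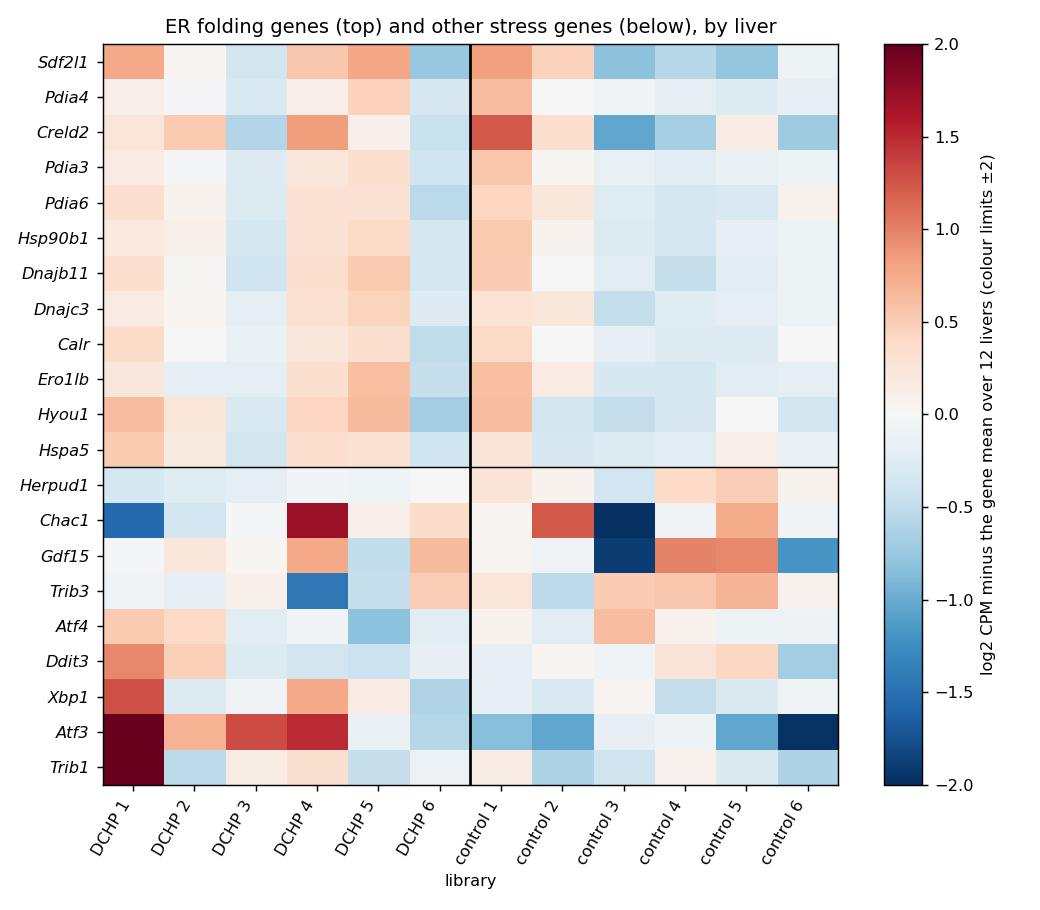
Log2 CPM minus the gene's mean over 12 livers, with DCHP 1 to 6 left of control 1 to 6, for ER folding genes (above the line) and other stress genes (below it). Red is above and blue below the gene's mean, and colours are limited to 2 on either side. Over the ER folding genes DCHP 1, DCHP 4, DCHP 5 and control 1 are red. DCHP 3, DCHP 6, control 3 and control 4 are mostly blue there. Most genes below the line do not follow that pattern. Xbp1 follows it in part: it is highest in DCHP 1, DCHP 4 and DCHP 5 and lowest in DCHP 6. However, its control 1 (130.8 CPM) is below its control 3 (151.6 CPM).

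The promoters of the stress genes and of the genes most like them were read for the ER stress elements known to be bound by ATF6 and XBP1. The ERSE is CCAAT and CCACG with 9 bases of any kind between them, the ERSE-II is ATTGG and CCACG with 1 base between them, and both were searched on both strands in the same 300-base RefSeq windows. They occurred in 0.119% and 0.0365% of the 32851 windows. Of the stress genes Creld2 held an ERSE and Herpud1 an ERSE-II, while the windows of Ddit3, Atf4, Xbp1, Sdf2l1 and Pdia4 held none of the 3 motifs, which says only that these letters are not in that stretch. The ERSE of Creld2 is shown above those found in the 5 genes most like Sdf2l1 or the 5 most like Pdia4 and that of Hspa5, with the fixed letters in capitals. Of those most alike genes, Pdia3 and Ormdl2 held no match, Rep15 had no window, and Dnajb11 held an ERSE-II just after its start that is not shown.
Creld2 (chr15:88819510-88819548, minus strand): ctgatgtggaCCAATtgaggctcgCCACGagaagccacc
Pdia6 (chr12:17266481-17266519, plus strand): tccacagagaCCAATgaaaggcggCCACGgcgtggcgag
Dnajc3 (chr14:118937817-118937855, plus strand): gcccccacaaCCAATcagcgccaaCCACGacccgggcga
Calr (chr8:84847065-84847103, plus strand): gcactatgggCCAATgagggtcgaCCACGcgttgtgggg
Ero1lb (chr13:12565672-12565710, minus strand): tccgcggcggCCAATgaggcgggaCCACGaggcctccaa
Hsp90b1 (chr10:86705523-86705561, plus strand): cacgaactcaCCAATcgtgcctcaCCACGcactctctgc
Hspa5 (chr2:34772015-34772053, plus strand): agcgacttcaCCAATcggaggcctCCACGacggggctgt
Herpud1, ERSE-II (chr8:94386367-94386397, plus strand): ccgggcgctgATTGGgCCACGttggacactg
The 9 bases between the capitals differed from gene to gene. The upstream end of the match lay between 65 bases (Hspa5) and 201 bases (Ero1lb, named Ero1b in RefSeq) before the start for the 7 ERSE shown, and 52 bases before it for the ERSE-II of Herpud1. Hsp90b1 held a second ERSE, 212 bases before its start.

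The share of windows with these letters is given for each list of most alike genes as a description, with no test. Among those 11443 tested genes, 9249 had a promoter window, and 25 of them (0.27%) held an ERSE or ERSE-II. Of the 50 genes most like Sdf2l1, 7 of the 39 with a window held one (17.9%), as did 7 of 42 for Pdia4 (16.7%) and 3 of 44 for Creld2 (6.82%), and these lists share genes. None of the genes most like the other 7 stress genes did. The list of ER chaperones itself held them in 8 of 19 windows (42.1%), and it overlaps the genes counted for Sdf2l1 and Pdia4. The C/EBP-ATF letters were in 0 to 7.14% of the windows of the genes most like each stress gene, against 2.85% of tested genes.

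The wider pathway was described from 10 lists with 110 genes other than the 10 above, of which 105 were tested. Of the 105, 1 was called higher (Atf3) and 0 lower, beside 0.963% and 0.313% of all tested genes. At an unadjusted p under 0.05 there were 15 with the higher and 3 with the lower mean in paternal DCHP, 18 of 105 in all, near the 18.93% of all tested genes. Fold changes were above 0 for 76 of the 105, with a median log2 fold change of 0.08, against 51.51% and 0.01 over all tested genes. With the dependence on exonic length and GC fitted and removed in each library, an alternative added after seeing the data, they were 74 of 105 and 0.06, against 45.78% and -0.02 over all genes, and without DCHP 1 and DCHP 4 they were 68 of 105 and 0.05. Log2 fold changes followed exonic length across all genes with r = 0.201, over 12376 genes, which are not independent replicates.

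Atf3 encodes a transcription factor of the ATF4 arm that is also induced as an early stress gene. It had 16.7, 5.14, 7.83, 8.91, 2.88 and 2.14 CPM in DCHP 1 to 6, against 1.76, 1.54, 2.83, 2.94, 1.54 and 0.803 CPM in control 1 to 6. DCHP 1 to DCHP 4 were above every control liver, and DCHP 5 and DCHP 6 were inside the control range. The mean was 7.27 ± 5.33 CPM in paternal DCHP and 1.90 ± 0.83 CPM in paternal control, a log2 fold change of 1.94 ± 0.46 (SE, edgeR FDR 0.0629). The FDR passed 0.1 in limma-voom and without DCHP 4, control 3, control 4, control 5 or control 6, where it was 0.101 to 0.133 while the log2 fold change was 1.78 to 2.11. Without DCHP 1 and DCHP 4 together, the livers with the highest Atf3, the log2 fold change was 1.25 (FDR 0.134). Of 12 immediate-early genes 4 were called higher, and their part in the Atf3 values was not tested. Trib1, a paralog of Trib3 that promotes protein degradation, had 471.9 CPM in DCHP 1 against 65.5 to 117.2 CPM in the other 5 livers of paternal DCHP and 61.3 to 104.8 CPM in paternal control. Its log2 fold change of 0.94 ± 0.43 (edgeR FDR 0.256) was 0.04 at the lowest over the alternatives.

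The list of sensors, which also holds the other eIF2alpha kinases and the proteases that process ATF6, had 8 of 9 log2 fold changes above 0 and a median of 0.16. None was called by edgeR, and 4 of the 9 had an unadjusted p under 0.05, all with the higher mean in paternal DCHP, beside 18.93% of all tested genes. With the length and GC dependence removed, 7 of 9 were above 0 with a median of 0.20, beside 45.78% and -0.02 over all genes. Atf6, which encodes the ATF6 sensor, averaged 106 ± 15.8 CPM in paternal DCHP and 85.2 ± 9.74 CPM in paternal control, a log2 fold change of 0.32 ± 0.10 (edgeR FDR 0.137). Mbtps2, the protease that releases the ATF6 factor, averaged 9.98 ± 1.24 CPM in paternal DCHP and 7.80 ± 0.96 CPM in paternal control, a log2 fold change of 0.36 ± 0.11 (edgeR FDR 0.118). Eif2ak3, which encodes PERK, averaged 16.4 ± 2.93 CPM in paternal DCHP and 12.9 ± 2.48 CPM in paternal control (log2 fold change 0.34 ± 0.14, edgeR FDR 0.206). Ern1, which encodes IRE1, had a log2 fold change of 0.16 ± 0.12 (edgeR FDR 0.482).

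The ER chaperones and folding enzymes were above 0 in 18 of 22, the list's median was 0.09, and 0 were called by edgeR in either direction, with 1 at an unadjusted p under 0.05. Over all tested genes 51.51% were above 0, the median was 0.01, and 18.93% were under that p. The values of the list moved with single livers: they were 14 of 22 with a median of 0.06 without DCHP 1, 16 of 22 with 0.03 without DCHP 5, and 11 of 22 with -0.0034 without DCHP 1 and DCHP 4 together. With the length and GC dependence removed they were 20 of 22 with a median of 0.05, beside 45.78% and -0.02 over all genes. Hspa5 averaged 481 ± 120 CPM in paternal DCHP and 415 ± 70.4 CPM in paternal control, a log2 fold change of 0.21 ± 0.16 (edgeR FDR 0.484). Txndc5, a disulfide isomerase family member, had the smallest p of the list and the opposite sign, with 150 ± 7.28 CPM in paternal DCHP, 172 ± 14.6 CPM in paternal control and a log2 fold change of -0.20 ± 0.07 (edgeR FDR 0.151). The 15 ER-associated degradation genes were above 0 in 10, with a median of 0.03. Once the length and GC dependence was removed they were above 0 in 7, with a median of -0.0045, near the 45.78% and -0.02 over all genes. In this list Edem3, which trims mannose from misfolded glycoproteins, averaged 59.8 ± 5.37 CPM in paternal DCHP and 48.8 ± 3.45 CPM in paternal control without overlap between the groups. Its edgeR FDR of 0.0734 was under the threshold but its log2 fold change of 0.29 ± 0.07 was under 1.5-fold, so it was not called.

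Translocation and export genes were above 0 in 10 of 16, with a median of 0.07, and of 0.05 (again 10 of 16) once the length and GC dependence was removed. Sec24d, a coat protein of vesicles that leave the ER, averaged 102 ± 7.16 CPM in paternal DCHP and 78.8 ± 9.53 CPM in paternal control, and its log2 fold change of 0.37 ± 0.08 was likewise under 1.5-fold at an edgeR FDR of 0.0575. The tRNA synthetases were above 0 in 10 of 12, with a median of 0.13. It was 0.07 (9 of 12) once the length and GC dependence was removed, beside -0.02 over all genes. Eprs, the glutamyl-prolyl-tRNA synthetase, averaged 130 ± 13.8 CPM in paternal DCHP and 107 ± 7.22 CPM in paternal control, a log2 fold change of 0.29 ± 0.08 (edgeR FDR 0.0917), again below the fold threshold. With that dependence removed it was 0.11 (FDR 0.583).

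The lists of the ATF4 arm were small. Beside them, 51.51% of all tested genes were above 0, with a median log2 fold change of 0.01. Transcription factors and feedback regulators were above 0 in 8 of 10, with a median of 0.21, secreted factors and their receptors in 3 of 4, with a median of 0.08, and enzymes of serine, one-carbon and amino acid metabolism in 6 of 7, with a median of 0.20. Amino acid transporters were above 0 in 2 of 6, with a median of -0.05, and the separate list of relatives of Trib3, Chac1 and Asns in 1 of 4, with a median of -0.08. Some of these medians changed sign when 1 library was left out: the transporters had 0.02 without control 5 and 0.0040 without DCHP 4, the secreted factors had -0.04 without control 3 and were also below 0 without control 6, DCHP 2, DCHP 4 or DCHP 6, and the relatives had 0.06 without control 5. With the length and GC dependence removed, the transcription factors and feedback regulators were above 0 in 9 of 10, with a median of 0.27. The secreted factors were then at 3 of 4 and 0.08, the enzymes at 6 of 7 and 0.14. The transporters were at 2 of 6 and -0.07, and the relatives at 1 of 4 and -0.07. Over all genes the values were then 45.78% and -0.02. Psat1, a serine synthesis enzyme, averaged 0.949 ± 0.513 CPM in paternal DCHP and 0.427 ± 0.175 CPM in paternal control, a log2 fold change of 1.13 ± 0.42 (edgeR FDR 0.168) that was called without DCHP 1 and without DCHP 1 and DCHP 4 together. DCHP 1 had the lowest Psat1 of paternal DCHP, at 0.22 CPM, so leaving it out raises the value by construction. Slc7a5, which encodes the large neutral amino acid transporter LAT1, averaged 1.87 ± 0.29 CPM in paternal DCHP and 3.00 ± 0.91 CPM in paternal control, a log2 fold change of -0.68 ± 0.21 (edgeR FDR 0.118) that was called by DESeq2 alone. Vldlr, a lipoprotein receptor induced by the PERK arm, averaged 1.48 ± 1.27 CPM in paternal DCHP and 2.60 ± 1.08 CPM in paternal control (log2 fold change -0.79 ± 0.48, edgeR FDR 0.389).

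**Figure D5:**
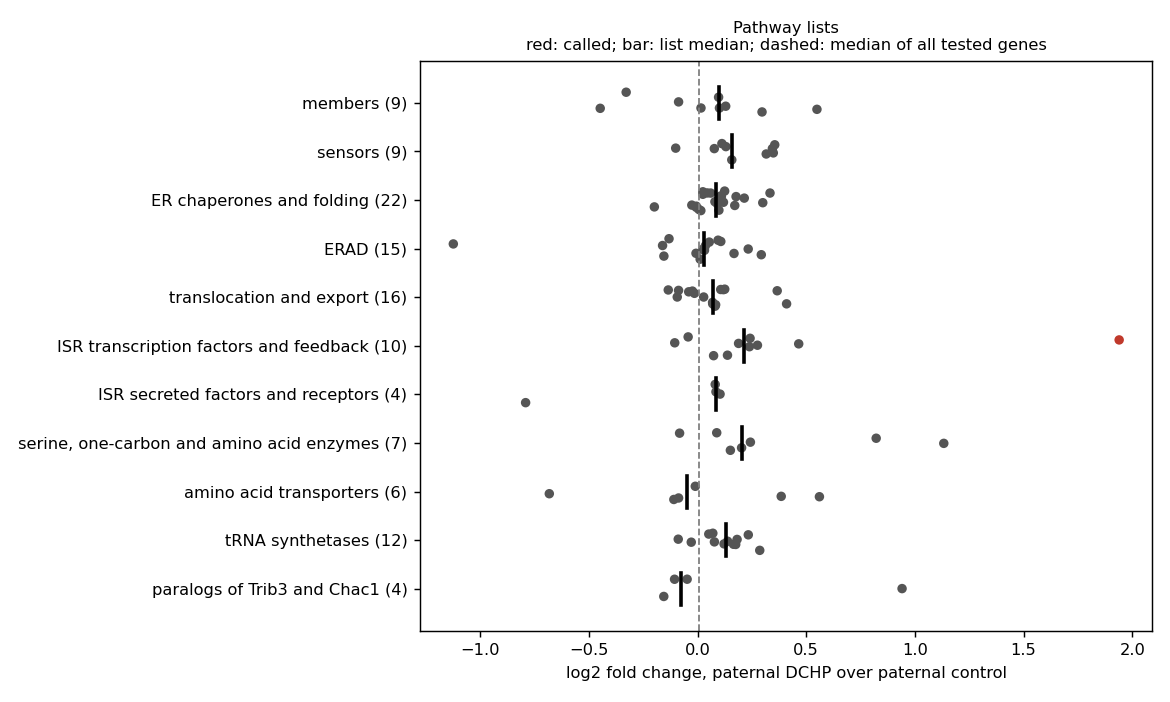
Log2 fold change of paternal DCHP over paternal control for each tested gene of the 10 stress genes (9 tested) and of the 10 pathway lists, with the number tested in parentheses. Black bars are list medians, the dashed line is the median of all tested genes and the red point is Atf3, the gene that was called. Every list has points on both sides of 0, and most points lie within 0.5 of it.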

How the data were processed

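Liver RNA-seq of 12 F1 males was analysed. The authors deposited a table of estimated counts per gene symbol, and per the labels reads were processed against mm10. The aligner, counting program, annotation and strand setting were not given in the sources used here. Of 21683 genes, 4782 had no count, and 0 columns belonged to other samples. Estimated counts were rounded, filtered with filterByExpr (minimum count 10), scaled by TMM and tested with the edgeR quasi-likelihood test (edgeR 4.0.16, R 4.3.3) without covariates. A call needed an FDR under 0.1 and a fold change above 1.5, the thresholds of the study. The SE was the absolute log2 fold change over the square root of F. Any 2 libraries of a group differed by more than counting noise.

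Stress genes and lists were chosen with earlier results of these data known. Named genes are the 10 stress genes, Hspa5, Atf6, Ern1, Eif2ak3, Atf3, up to 4 called genes or otherwise the gene of smallest p from each list, and the 5 genes most like each stress gene. Derl3, P4hb, Dnajb9, Phgdh, Aldh1l2, Mthfd2, Atf5, Nupr1, Fgf21, Slc1a4, Hsp90b1 as a per-liver example, the top-50 counts and the motif counts were chosen after values were seen. Correlations used a prior count of 2 and 100000 resamples within groups. Positions are 1-based GENCODE coordinates, and promoters come from RefSeq (GRCm38.p6).

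Alternatives were RLE factors, TMM factors that left out the 20 most abundant genes, no filter, at least 1 CPM in 6 libraries, DESeq2 (1.42.0), limma-voom (limma 3.58.1), the replicate number as a block, each library left out, and DCHP 1 and DCHP 4 left out together. Removal of length and GC trends, and Asns without DCHP 2, were added after seeing the data. The test was also run on counts simulated for independent livers from its own fitted dispersions. That run does not cover related animals, single deviating livers or changes under 1.5-fold. Intervals cover the spread between these animals only.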

Additional observations from a re-analysis of the deposited data

Results flagged for a closer look

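Single livers lay far from the other 5 of their group, by Dixon's test, for 3 of the 40 group ends examined (20 groups of 6), and chance alone flags about 1 in 20 groups. Chac1 was at 24.06 CPM in DCHP 4, the highest of paternal DCHP, with a gap to the next liver of 0.674 of the group's range. Pdia4 was at 190.4 CPM in control 1, the highest of paternal control, with a gap of 0.766 of the range. Atf4 was at 76.98 CPM in control 3, also the highest of paternal control, with a gap of 0.71 of the range.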

How the results depend on the processing

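No stress gene was called under any alternative. The count of genes called over all tested genes, 159, was 326 in DESeq2 and between 7 (without control 3) and 233 (without DCHP 6) when 1 library was left out. Leaving out control 1, 4, 5 or 6 gave 105, 33, 38 and 33, and leaving out DCHP 4 or 5 gave 69 and 77. The count of pathway genes called, 1, was 2 in DESeq2, 0 in limma-voom and 0 to 2 when 1 library was left out. The cause was not tested. Replicate numbers are shared between groups. Deviations of same-numbered livers had correlations of -0.12 to 0.174, best with the own number in 1 of 6. The labels do not say whether same-numbered livers shared a cage, a day or a batch, and these correlations cannot settle it. With the replicate number as a block 59 genes were called, no stress gene among them.

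With 1 library left out, the log2 fold change ran between -0.12 (DCHP 1 out) and 0.23 for Ddit3, between -0.22 and 0.047 (control 3 out, and 0.033 with DCHP 5 out) for Atf4, between -0.41 (DCHP 4 out, and -0.11 with control 3 out) and 0.41 for Chac1, between -0.085 (DCHP 5 out) and 0.17 for Pdia4, and between -0.071 (DCHP 4 out) and 0.49 for Creld2. Pdia4 was also below 0 with control 3, 4, 5 or 6 or DCHP 1 out, and Creld2 with control 3, 4 or 6 out. With DCHP 1 and DCHP 4 out together, the sign turned for Ddit3 (-0.059), Chac1 (-0.22), Pdia4 (-0.037) and Creld2 (-0.13). The median correlation between stress genes, -0.03, was 0.0014 within paternal control. Xbp1, Herpud1, Trib3 and Sdf2l1 kept their sign under all 21 alternatives. Depth limits Asns most, at 4 to 48 counts a library.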

Other observations

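Psat1 and Mthfd2, low-level genes of serine and one-carbon metabolism that like Asns are targets of ATF4, had their highest level in the same liver as Asns. DCHP 2 held 1.81 CPM of Psat1, against 0.22 to 1.05 CPM in the other 5 livers of paternal DCHP and 0.199 to 0.669 CPM in paternal control. It held 2.63 CPM of Mthfd2, the mitochondrial methylenetetrahydrofolate dehydrogenase, against 0.0846 to 1.32 CPM in the other livers of paternal DCHP and 0.306 to 1.03 CPM in paternal control. Asns itself was at 1.70 CPM in that liver, where Trib3 (3.57 CPM) and Chac1 (5.64 CPM) were not the highest of their group. Phgdh and Aldh1l2, also at low level on the same list, were not highest there, with 0.248 CPM and 0.323 CPM in DCHP 2, against a highest control liver of 0.344 CPM (control 3) and 0.536 CPM (control 6). These genes were compared after their values were seen, and no test was made of 1 liver.

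Gdf15, a hormone of the integrated stress response and a gene alike to Herpud1 in its liver pattern, spanned 13.6 to 32.3 CPM in paternal DCHP and 5.12 to 38.0 CPM in paternal control. Both genes were lowest of paternal control in control 3, and Gdf15 was highest there in control 4 and control 5, where Herpud1 was also highest. Its log2 fold change was 0.10 ± 0.40 (edgeR FDR 0.912).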
